A study of Homo sapiens with 6 samples.

Results

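The genes of the nuclear pore and of the nuclear transport receptors were examined in CaSki cells given TGF-β1. Members were chosen by name: NUP followed by a number, the KPNA, KPNB, IPO, XPO and TNPO families, and RAN, RANBP1, RANBP2, RANGAP1, RCC1, CSE1L, TPR, NDC1, POM121, AAAS and SEH1L. Of the 19775 genes with a singly named probe set, 62 met this rule. Of these, 57 are protein-coding, and the other 5 are the pseudogenes IPO5P1 and NUP210P1, the antisense transcript IPO9-AS1 and the divergent transcripts NUP133-DT and NUP50-DT.

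The study set cells treated with recombinant TGF-β1 at 2 ng/mL against cells kept in medium without it, with 3 arrays in each group. CaSki is an established human cervical squamous cell carcinoma line that carries integrated papillomavirus DNA, so both groups come from 1 line. The labels do not say whether the arrays of a group came from separate cultures, nor how long treatment lasted, so the p-values rest on array-to-array spread that may be only technical. Expression is given as log2 values, on which a difference of 1 is a doubling, and differences are TGF-β1 minus untreated.

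The nuclear pore is a ring-shaped channel through the nuclear envelope, built from scaffold nucleoporins that shape it, transmembrane nucleoporins that anchor it, and nucleoporins rich in phenylalanine-glycine (FG) repeats that line the channel and bind transport receptors. Importins carry proteins inward and exportins carry proteins and RNA outward. Direction is set by the small GTPase Ran, which is held in its GTP form in the nucleus by RCC1 and in its GDP form in the cytoplasm by RANGAP1 with RANBP1. In TGF-β signalling, activated SMAD proteins must pass through this channel. KPNB1, IPO7 and IPO8 are known as importers of SMADs, XPO1 exports SMAD4, XPO4 and RANBP3 act in the export of SMAD3 and of SMAD2 with SMAD3, and NUP153 and NUP214 bind SMAD2 directly.

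Before the values, the promoters of 5 of the genes that fell are shown. They were picked by their letters: NUP35, NUP160, NUP58 and RCC1 are all the genes called lower whose window holds an ETS match, and NUP88 is shown as 1 of the 6 whose window holds no match to any motif searched. The others of those 6, not shown, are XPOT, NUP98, NUP42, SEH1L and NDC1. Each window runs from 250 bases before to 50 bases after the first listed start of the gene in RefSeq (GRCh38.p14) and reads 5′ to 3′ on the strand of the gene. Capitals mark matches, on either strand, to the ETS site CCGGAAGT or the E2F site GGCGGGAA.
NUP35, chr2:183124193-183124492, plus strand: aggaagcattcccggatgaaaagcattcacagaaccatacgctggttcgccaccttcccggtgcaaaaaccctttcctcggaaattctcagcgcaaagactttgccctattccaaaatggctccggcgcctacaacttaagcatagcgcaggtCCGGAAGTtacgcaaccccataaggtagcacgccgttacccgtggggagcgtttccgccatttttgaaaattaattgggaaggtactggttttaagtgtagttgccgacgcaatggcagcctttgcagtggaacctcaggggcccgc
NUP160, chr11:47848301-47848600, minus strand: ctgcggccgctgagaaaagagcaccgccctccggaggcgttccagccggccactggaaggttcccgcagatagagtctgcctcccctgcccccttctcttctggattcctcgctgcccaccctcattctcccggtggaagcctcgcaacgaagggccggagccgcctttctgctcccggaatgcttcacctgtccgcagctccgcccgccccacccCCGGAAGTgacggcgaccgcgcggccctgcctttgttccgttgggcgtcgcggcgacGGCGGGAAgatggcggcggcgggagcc
NUP58, chr13:25301375-25301674, plus strand: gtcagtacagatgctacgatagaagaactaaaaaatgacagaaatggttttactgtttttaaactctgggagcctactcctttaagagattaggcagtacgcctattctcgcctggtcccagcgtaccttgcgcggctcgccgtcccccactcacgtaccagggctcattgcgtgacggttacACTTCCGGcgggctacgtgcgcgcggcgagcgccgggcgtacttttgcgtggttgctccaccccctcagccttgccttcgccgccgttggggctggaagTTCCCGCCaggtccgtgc
RCC1, chr1:28505793-28506092, plus strand: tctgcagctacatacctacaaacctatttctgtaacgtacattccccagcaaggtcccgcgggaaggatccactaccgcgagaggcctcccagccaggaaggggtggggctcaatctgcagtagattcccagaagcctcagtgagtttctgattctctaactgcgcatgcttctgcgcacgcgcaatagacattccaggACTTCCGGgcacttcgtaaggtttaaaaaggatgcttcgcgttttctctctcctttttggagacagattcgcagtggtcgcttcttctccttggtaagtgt
NUP88, chr17:5419613-5419912, minus strand: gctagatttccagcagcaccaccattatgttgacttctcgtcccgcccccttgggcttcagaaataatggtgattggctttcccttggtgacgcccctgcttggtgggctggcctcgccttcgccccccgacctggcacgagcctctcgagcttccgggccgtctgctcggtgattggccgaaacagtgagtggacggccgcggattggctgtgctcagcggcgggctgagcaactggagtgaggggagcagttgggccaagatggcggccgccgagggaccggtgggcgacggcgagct
An ETS match stood in the windows of NUP35, NUP160, NUP58 and RCC1, NUP160 and NUP58 also had an E2F match, and the NUP88 window had neither.

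A window was found for 54 of the 62 members, among them 51 of the protein-coding ones and 10 of the 11 genes called lower below. RANBP1, KPNB1, KPNA4, KPNA5, NUP43, XPO7, IPO5P1 and NUP210P1 were without one. XPO7 lies on chromosome 8, and windows on that chromosome were left out for members and for the array's genes alike. The ETS site was present in 4 of the 10 called genes (40%), in 9 of the 51 protein-coding members (17.6%) and in 6.25% of 15384 genes on the array that had a window. The E2F site was present in 2 of the 10 called genes (20%), in 6 of the 51 coding members (11.8%) and in 4.21% of the array's genes. CACGTG, the E-box bound by MYC, was in 0 of the 10 called genes, in 7 of the 51 coding members (13.7%) and in 8.9% of the array's genes. The consensus NRF1 site was in 0 of the 10, in 3 of the 51 (5.88%) and in 1.79%, and the palindromic SMAD site GTCTAGAC in 0, in 0 and in 0.124%. Each motif was searched on both strands, none of the 5 lies within another, and a match is a description of letters, not of a bound site. Median GC content of the windows was 66.3% for the called genes, 62.7% for the coding members and 63% for the array's genes.

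In TGF-β1-treated cells 8 of 29 nucleoporin transcripts fell, each by a small amount. Of 24 import and export receptors 1 fell (4.17%, beside 4.47% of all genes). Whether the shares of nucleoporins and receptors differ was not tested. Of the 62 members 11 fell, against 4.47% of all genes called lower, and 1 rose, against 4.03% of all genes called higher (limma, Benjamini-Hochberg adjusted p below 0.05 over all genes, 8.5% called in either direction). The 11 were NUP35, NUP88, RCC1, NUP58, NUP98, XPOT, SEH1L, NDC1, NUP160, NUP42 and RANBP1, which makes 17.7% of the members. The 1 rise was the pseudogene IPO5P1, so that 0 of the 57 protein-coding members rose. The largest fall was 1.52-fold.

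The median difference was -0.15 over the 62 members and -0.17 over the 57 coding members, beside 0.00 over all genes. Most members were read well above the dimmest signals: 57 of the 62 lay above the median probe set, at 4.16 on the log2 scale. Of the 57 members above that level 19.3% were called lower, against 6.43% of all 13107 genes above it, with medians of -0.17 for the members and -0.02 for all such genes. In 29 members every TGF-β1 array lay below every untreated array, which is 46.8% of them against 16.3% of all genes. The reverse held in 6 members, 3 of them coding, against 12.9% of all genes.

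The number of falls depended on single arrays. Leaving out TGF-β1 array 1, 2 or 3 gave 7, 2 and 3 falls, and leaving out untreated array 1, 2 or 3 gave 3, 5 and 2, with 1.6% to 3.19% of all genes called lower in these fits. NUP35 and NUP88 were the 2 that passed without each of the 6 arrays in turn. The median of the members stayed between -0.16 and -0.13 in these fits.

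**Figure D1:**
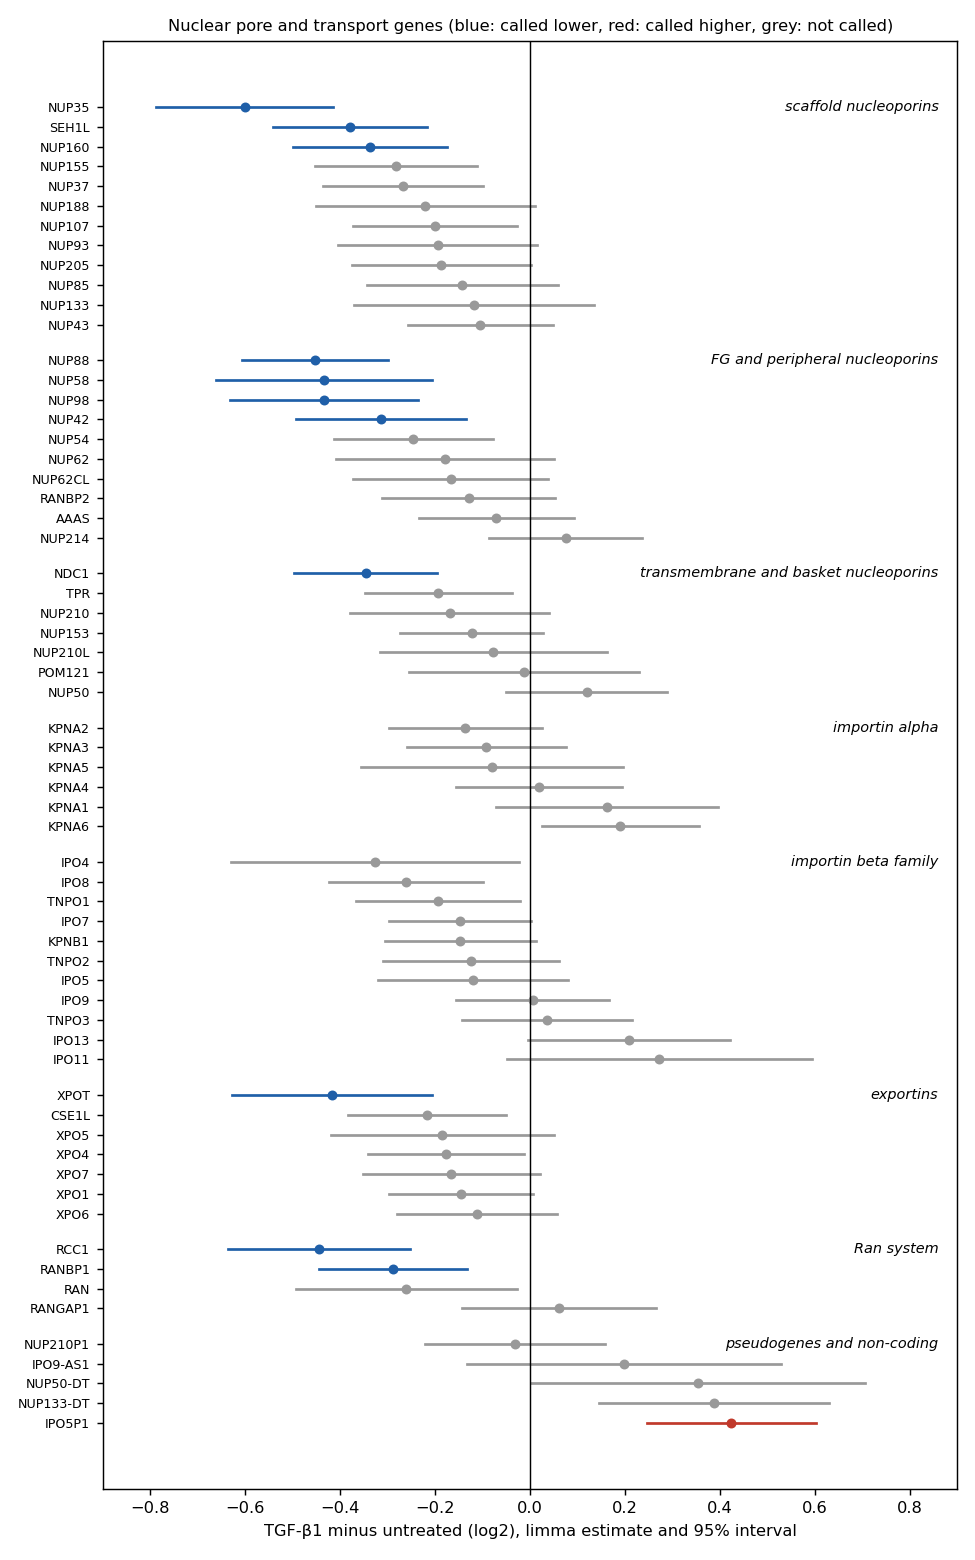
Difference between TGF-β1-treated and untreated cells (log2, horizontal axis) for each of the 62 members, grouped by role, with the limma estimate as a point and its 95% interval as a line. Blue marks the 11 members called lower, red the 1 called higher (IPO5P1) and grey those not called. All 12 scaffold nucleoporins and all 7 exportins have estimates below 0, and the importin alpha genes lie on both sides of it.

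The scaffold nucleoporins were 12 genes, of which 3 fell, 0 rose and 9 did not pass, with a median of -0.21 and a range from -0.60 to -0.10. In 9 of the 12 (75%) the groups did not overlap, with TGF-β1 lower. The share was 16.3% over all genes and 22% over genes above the median level. Counts of falls by role group stand beside 4.47% of all genes called lower, or 6.43% of genes above that level. NUP35, an inner-ring protein that contacts the pore membrane and the NUP93 and NUP155 scaffold, read 7.31, 7.40 and 7.42 on the TGF-β1 arrays, against 7.93, 7.90 and 8.10 on the untreated arrays. The highest treated value was thus well below the lowest untreated one. NUP35 was 1.52-fold lower, a difference of -0.60 ± 0.08 (SE, limma adjusted p = 0.00376), and stayed between -0.64 and -0.54 without single arrays (adjusted p up to 0.0179). It has 1 probe set.

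SEH1L and NUP160 belong to the Y-shaped complex that forms the outer rings of the pore. SEH1L, which also serves in a complex that controls amino acid signalling to mTORC1, read 9.51, 9.46 and 9.45 on the TGF-β1 arrays, against 9.89, 9.78 and 9.89 on the untreated arrays. It fell (-0.38 ± 0.07, SE, adjusted p = 0.0159), and the arrays within each group lay close together. A second, dimmer SEH1L probe set differed by more, at -0.79 ± 0.09 (adjusted p = 0.0023 over all probe sets). On the brighter one SEH1L no longer passed once TGF-β1 array 2 or 3 or untreated array 1 or 3 was left out (adjusted p up to 0.0675).

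NUP160 read 7.84, 7.96 and 7.94 with TGF-β1, against 8.27, 8.20 and 8.28 without it. It fell 1.26-fold (-0.34 ± 0.07, SE, adjusted p = 0.0254), with no overlap between groups. Its other 2 probe sets differed by -0.42 and -0.34 without passing, and NUP160 missed the threshold whichever array was left out (adjusted p 0.0564 to 0.0939).

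Next in size were NUP155, a large inner-ring protein, at -0.28 ± 0.07 (adjusted p = 0.0564), and NUP37, a Y-complex subunit, at -0.27 ± 0.07 (adjusted p = 0.0631), neither of which passed. NUP155 read 8.32, 8.35 and 8.44 in treated cells, against 8.62, 8.61 and 8.74 in untreated cells. NUP37 read 10.15, 10.16 and 10.24 in treated cells, against 10.37, 10.48 and 10.51 in untreated cells. For both genes the treated values lay below the untreated ones. Both passed among genes above the median level or the 25th percentile and with a trended robust variance. They also passed with array weights and with the RNA-quality covariate described below. NUP155 passed as well when probe sets were averaged, but it has 1 probe set, so its own values did not change there. The other Y-complex genes NUP107, NUP85, NUP133 and NUP43 differed by -0.20, -0.14, -0.12 and -0.10, and the inner-ring genes NUP188, NUP93 and NUP205 by -0.22, -0.20 and -0.19, with adjusted p between 0.156 and 0.577. The 95% interval of NUP43 ran from -0.26 to 0.05. A second NUP43 probe set, below the median level, differed by -0.53 (limma adjusted p = 0.0496 over all probe sets). NUP43 passed when its probe sets were averaged.

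Among 10 FG-repeat and peripheral nucleoporins 4 fell, 0 rose and 6 did not pass, with a median of -0.21. NUP88, which sits on the cytoplasmic side of the pore and binds NUP214 and NUP98, read 7.70 on each of the 3 TGF-β1 arrays, against 8.21, 8.12 and 8.13 on the untreated arrays. The treated arrays agree to the second decimal, and the gap to untreated cells is several times the untreated range. NUP88 fell 1.37-fold (-0.45 ± 0.07, SE, adjusted p = 0.00583) and passed without each single array (adjusted p up to 0.0293). It did not pass without both arrays numbered 1, nor when its probe sets were averaged. A second NUP88 probe set, whose level of 4.22 is close to the median probe set, differed by 0.23 ± 0.14 without passing (adjusted p = 0.449 over all probe sets).

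NUP98, an FG nucleoporin whose gene also encodes the scaffold protein NUP96 in the same precursor, read 7.19, 7.15 and 7.21 with TGF-β1, against 7.46, 7.66 and 7.73 without it. It fell 1.35-fold (-0.43 ± 0.09, SE, adjusted p = 0.0208). The 3 probe sets of NUP98 did not give 1 size: the chosen one and another of nearly the same level (7.40 and 7.39) differed by -0.43 and -0.08, and a dimmer one by -0.33. NUP98 passed when TGF-β1 array 1 was left out and missed the threshold in the other 5 such fits, with adjusted p up to 0.846 and a difference up to -0.04 where the other probe set became the brightest. With the probe set kept, the difference stayed between -0.51 and -0.38 and passed with TGF-β1 array 1 or untreated array 1 left out (adjusted p 0.0168 to 0.0801 over the 6 fits).

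NUP58, which forms the central channel with NUP62 and NUP54, read 5.50, 5.32 and 5.52 with TGF-β1, against 5.71, 5.98 and 5.95 without it. It fell 1.35-fold (-0.43 ± 0.10, SE, adjusted p = 0.0341), with untreated array 1 nearest to the treated values. Its probe sets disagreed as well: 2 dimmer ones above the median level differed by 0.08 and -0.22 without passing. The call held without untreated array 1 alone and ended when any of the other 5 was left out (adjusted p up to 0.804, or 0.121 with the probe set kept). The channel partners NUP54 and NUP62 differed by -0.25 ± 0.07 and -0.18 ± 0.10 without passing (adjusted p = 0.0811 and 0.332).

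NUP42, a cytoplasmic-side FG protein that binds the mRNA export factor GLE1, read 6.76, 6.63 and 6.69 with TGF-β1, against 6.93, 6.98 and 7.11 without it. It fell 1.24-fold (-0.31 ± 0.08, SE, adjusted p = 0.0453), close to the threshold. NUP42 missed the threshold whichever array was left out (adjusted p 0.0569 to 0.151), after median centring, and with the RNA-quality covariate described below. The call also ended with the replicate number as a block, without both arrays numbered 1, and in a fit of all probe sets singly. RANBP2, the large protein of the cytoplasmic filaments, NUP62CL and AAAS differed by -0.13, -0.17 and -0.07. Dimmer RANBP2 probe sets differed by 0.18, -0.02 and 0.13 without passing, so its sign depends on the probe set. NUP214, the partner of NUP88 and NUP98 on the cytoplasmic side, read 6.93, 6.86 and 6.87 with TGF-β1, against 6.88, 6.75 and 6.81 without it, and the groups overlapped. Its difference was 0.07, with a 95% interval from -0.09 to 0.24 (adjusted p = 0.583), while its dimmer probe sets differed by -0.31 and -0.04 without passing.

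**Figure D2:**
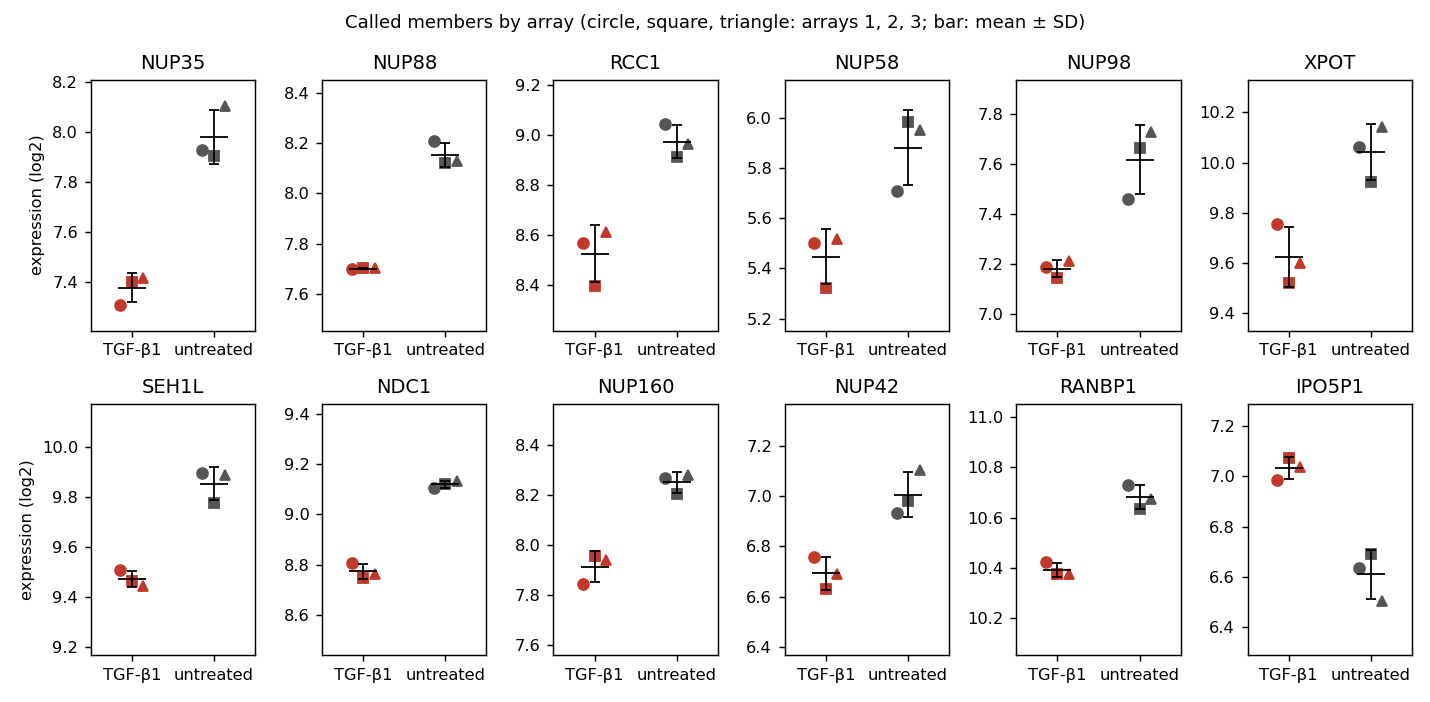
Expression (log2, vertical axis, each panel spanning 1 unit) of the 12 called members on the 3 TGF-β1 arrays (left) and the 3 untreated arrays (right); markers give the array number, bars the mean ± SD. In each panel the groups do not overlap, with TGF-β1 lower for 11 genes and higher for IPO5P1.

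Of 7 transmembrane and basket nucleoporins 1 fell and 6 did not pass, with a median of -0.12. NDC1, a membrane-spanning anchor that binds NUP35, read 8.81, 8.75 and 8.76 on the TGF-β1 arrays, against 9.11, 9.12 and 9.13 on the untreated arrays. Both groups were tight, and NDC1 fell 1.27-fold (-0.35 ± 0.07, SE, adjusted p = 0.0167). Its second, dimmer probe set differed by -0.69 ± 0.10 (adjusted p = 0.00954 over all probe sets). The call on the brighter one held without TGF-β1 array 1 and ended when any of the other 5 was left out (adjusted p up to 0.0675).

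TPR, the long coiled-coil protein of the nuclear basket, read 9.02, 9.05 and 8.99 with TGF-β1, against 9.22, 9.17 and 9.25 without it, and did not pass (-0.19 ± 0.07, adjusted p = 0.129). NUP153, which anchors the basket and binds SMAD2, read 9.49, 9.54 and 9.50 against 9.63, 9.61 and 9.65, without overlap and without passing (-0.12, adjusted p = 0.31). NUP50, its basket partner, was the coding nucleoporin with the highest estimate, at 0.12 with an interval from -0.05 to 0.29. Its 3 dimmer probe sets above the median level differed the other way, by -0.13, -0.16 and -0.02, and none of the 4 passed. POM121 and the glycoprotein NUP210, both spanning the membrane, differed by -0.01 and -0.17, and NUP210L by -0.08 at a level below the median probe set.

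**Figure D3:**
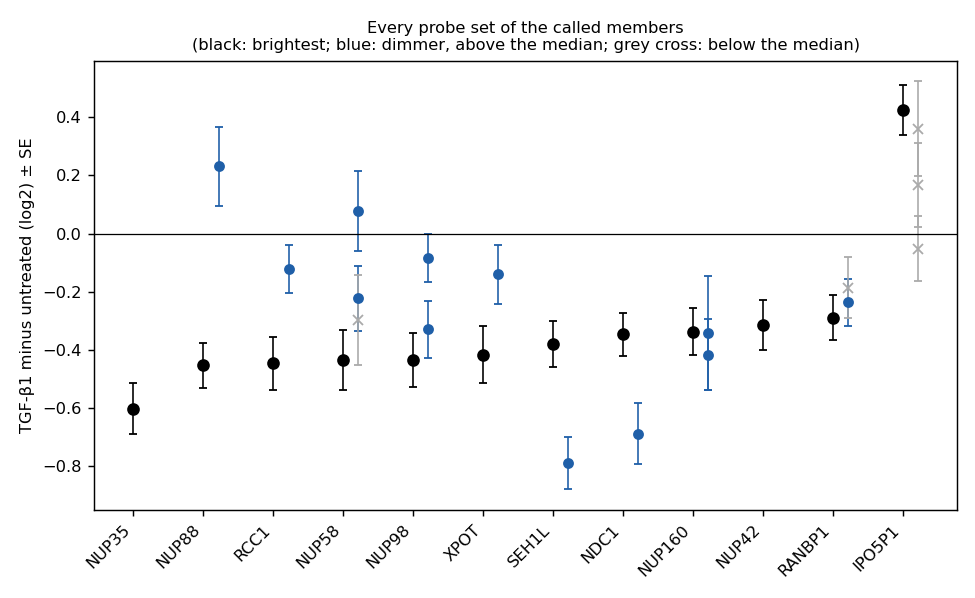
Difference (TGF-β1 minus untreated, log2, vertical axis, ± SE from a fit of all probe sets) for every singly named probe set of the 12 called members. Black points are the brightest probe set, used for the gene; blue points are dimmer ones above the median level, and grey crosses lie below it. SEH1L and NDC1 have a dimmer probe set with a larger fall, and NUP88 and NUP58 have 1 above 0.

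Across the set, 47 of the 62 members had more than 1 probe set. Of 85 dimmer probe sets above the median level, 63 had the sign of the one used. For the 11 genes that fell there were 12 such probe sets, of which 10 were below 0 and 2, those of SEH1L and NDC1, passed over all probe sets.

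Of 24 importin and exportin genes 1 fell (4.17%, near the 4.47% of all genes) and 0 rose as reported. With a trended robust variance 6 fell (XPOT, CSE1L, XPO1, IPO8, TNPO1 and KPNB1), and 7.72% of all genes were called lower. The medians were -0.13 for the receptors and -0.19 for the 29 nucleoporins. The groups were separate with TGF-β1 lower in 9 of 24 (37.5%) and 18 of 29 (62.1%), against 16.3% of all genes. Of genes above the median level 22% were separate in this direction. The 1 receptor that fell as reported was XPOT, the exporter of tRNA. It read 9.75, 9.52 and 9.60 on the TGF-β1 arrays, against 10.06, 9.92 and 10.14 on the untreated arrays, and the groups did not overlap. XPOT fell 1.34-fold (-0.42 ± 0.09, SE, adjusted p = 0.0307), and a dimmer probe set differed by -0.14. With TGF-β1 array 2 or 3 or untreated array 1 or 3 left out, XPOT did not pass (adjusted p up to 0.112).

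All 7 exportins had estimates below 0, from -0.42 to -0.11. CSE1L, which returns importin alpha to the cytoplasm, read 10.83, 10.71 and 10.82 with TGF-β1, against 11.02, 10.95 and 11.05 without it, and did not pass (-0.22 ± 0.07, adjusted p = 0.117). XPO1, the general exporter of proteins with a leucine-rich signal, read 11.36, 11.39 and 11.39 in treated cells, against 11.49, 11.52 and 11.57 in untreated cells. Its groups were separate but the difference was small (-0.15, interval -0.30 to 0.01, adjusted p = 0.232). XPO4 read 6.76, 6.72 and 6.85 against 6.90, 6.98 and 6.97 (-0.18, adjusted p = 0.186), and its dimmer probe set differed by 0.11. XPO5, which exports precursor microRNAs, XPO7 and XPO6, which exports actin, differed by -0.19, -0.17 and -0.11.

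Of 11 importin beta family genes 0 passed (limma, lowest adjusted p 0.0598), with a median of -0.12 and a range from -0.33 to 0.27. IPO8, KPNB1 and TNPO1, 3 of the 11, passed with a trended robust variance, where 7.72% of all genes were called lower. IPO8 also passed when only genes above the median level or above the 25th percentile were tested, and with the RNA-quality covariate described below, so the count of 0 depends on the setting. IPO8, one of the SMAD importers, read 8.73, 8.81 and 8.81 with TGF-β1, against 9.02, 9.01 and 9.11 without it, and came closest (-0.26 ± 0.07, adjusted p = 0.0598). The other SMAD importers lay lower by less: IPO7 read 9.74, 9.74 and 9.78 against 9.88, 9.90 and 9.93 (-0.15, adjusted p = 0.223), and KPNB1 read 11.90, 11.96 and 11.95 against 12.05, 12.15 and 12.06 (-0.15, adjusted p = 0.251). All 3 were separated between the groups, and all 4 probe sets of IPO7 lay between -0.23 and -0.15.

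IPO4, a carrier of histones and ribosomal proteins, had the largest estimate of the family (-0.33 ± 0.13, adjusted p = 0.184) with overlapping groups, at 5.81, 5.43 and 5.48 in treated and 6.08, 5.69 and 5.93 in untreated cells. TNPO1, the receptor for proline-tyrosine signals on RNA-binding proteins, differed by -0.19, TNPO2 by -0.12 and IPO5 by -0.12. The dimmer IPO5 probe sets ran from -0.42 to 0.17 without passing. IPO9 and TNPO3, the importer of SR splicing factors, differed by 0.01 and 0.04, with intervals from -0.16 to 0.17 and from -0.14 to 0.21. IPO13, which carries cargo both ways, was at 0.21 (adjusted p = 0.225), and IPO11 at 0.27, at a level of 2.83 below the median probe set.

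The 6 importin alpha genes, adaptors that join classical import signals to KPNB1, were on both sides of 0, with a median of -0.03. None of the 6 passed in the fit as reported or in any alternative run here. KPNA2 read 10.96, 11.07 and 10.99 with TGF-β1, against 11.11, 11.15 and 11.17 without it (-0.14, adjusted p = 0.292). KPNA6 ran the other way, at 7.95, 8.0 and 7.93 against 7.70, 7.76 and 7.85 (0.19 ± 0.07, interval 0.03 to 0.36, adjusted p = 0.158). KPNA1, KPNA4, KPNA3 and KPNA5 differed by 0.16, 0.02, -0.09 and -0.08.

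**Figure D4:**
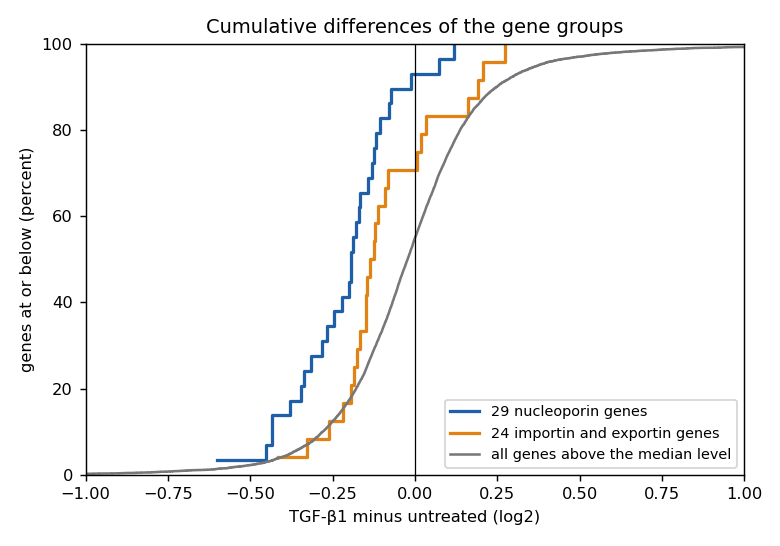
Cumulative share of genes (percent, vertical axis) at or below each difference (TGF-β1 minus untreated, log2, horizontal axis, drawn from -1 to 1) for the 29 nucleoporin genes (blue), the 24 importin and exportin genes (orange) and all 13107 genes above the median level (grey). The medians are -0.19, -0.13 and -0.02.

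In the Ran system 2 of 4 genes fell. RCC1, the chromatin-bound exchange factor that loads Ran with GTP, read 8.57, 8.40 and 8.61 on the TGF-β1 arrays, against 9.04, 8.91 and 8.96 on the untreated arrays. It fell 1.36-fold (-0.45 ± 0.08, SE, adjusted p = 0.0164). A dimmer RCC1 probe set differed by -0.12 without passing, and RCC1 missed the threshold with TGF-β1 array 2 or untreated array 1 or 3 left out (adjusted p up to 0.0638). RANBP1, which frees Ran from export complexes in the cytoplasm, read 10.42, 10.38 and 10.37 with TGF-β1, against 10.73, 10.64 and 10.68 without it. It fell 1.22-fold (-0.29 ± 0.07, SE, adjusted p = 0.0379), its 2 dimmer probe sets differed by -0.24 and -0.19, and RANBP1 missed the threshold whichever array was left out (adjusted p 0.0564 to 0.119).

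RAN itself read 11.17, 11.37 and 11.51 on the TGF-β1 arrays, against 11.51, 11.66 and 11.67 on the untreated arrays. Treated array 3 reached the lowest untreated value, and RAN did not pass (-0.26 ± 0.10, adjusted p = 0.171), with -0.06 on its second probe set. RANGAP1, which makes Ran hydrolyse its GTP, was at 0.06 with an interval from -0.14 to 0.26.

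The pseudogene IPO5P1 read 6.99, 7.07 and 7.04 with TGF-β1, against 6.64, 6.69 and 6.50 without it. It rose 1.34-fold (0.42 ± 0.08, SE, adjusted p = 0.0148), while its parent gene IPO5 was at -0.12. Its probe set may share sequence with IPO5, which was not tested, and IPO5P1 missed the threshold with TGF-β1 array 2 or 3 or untreated array 3 left out (adjusted p up to 0.0585). NUP133-DT and NUP50-DT were at 0.39 (adjusted p = 0.0626) and 0.35 (adjusted p = 0.213), beside -0.12 and 0.12 for the genes NUP133 and NUP50 that they diverge from. NUP50-DT was set by TGF-β1 array 1 at 5.27, against 4.73 and 4.65 on the other treated arrays, and was at 0.16 without it.

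Over the 6 arrays the members most like NUP35 were IPO8, XPO1, NUP160, IPO7 and NUP155, with Pearson r of 0.995, 0.992, 0.985, 0.984 and 0.983. IPO5P1 was at the other end, at -0.975. These are descriptions over 6 arrays that share the contrast between the groups, which alone gives a high r.

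The array means of the 57 coding members were 8.13, 8.14 and 8.17 with TGF-β1, against 8.29, 8.29 and 8.34 without it. No treated array reached the lowest untreated one. RNA quality was read from the control probes for GAPDH and ACTB, as the log2 ratio of their 3′ to their 5′ signal. It was 1.15, 0.69 and 0.74 on the TGF-β1 arrays, against 1.19, 0.86 and 0.77 on the untreated arrays, and the groups overlapped. With that ratio as a covariate 14 members fell and 1 rose, with 5.65% of all genes called lower. These were 10 of the 11 genes called lower as reported, without NUP42, together with IPO8, NUP155, NUP37 and RAN. The part of RNA quality in these differences was not tested further.

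Markers of dividing cells were also lower with TGF-β1. Of 24 proliferation genes 9 fell (37.5%, against 4.47% of all genes), 0 rose and 15 did not pass, with a median of -0.26. MYC fell by 0.97 on the log2 scale and MKI67 by 0.48. Their summed log2 level was 223 to 225 on the treated arrays and 231 to 232 on the untreated arrays, and the part of proliferation in the nuclear pore result was not tested. In bulk samples, fewer cells of one kind and less RNA per cell cannot be told apart. Of 12 squamous epithelial markers 9 had a singly named probe set. All 9 lay above the median level, as did 13107 of all 19775 genes, so this level cannot check the label of the line. KRT14 rose and EPCAM fell, and the summed level was 83.2 to 84.8 in treated and 82.8 to 83.4 in untreated cells. Below the median level lay 5 of 9 fibroblast, 2 of 6 endothelial and 2 of 5 leukocyte markers, and the others of these lay above it. Of the fibroblast markers 1 rose, COL1A1, by 1.58 (SE 0.10, adjusted p = 9.39e-05). Of the endothelial markers KDR rose by 0.29 (adjusted p = 0.0343) and CDH5 fell by 0.41 (adjusted p = 0.0299), both at levels below the median probe set, and 0 of the 5 leukocyte markers passed. The part of other cell types in the nuclear pore result was not tested. Their summed levels were 39.5 to 40.4, 25.7 to 26.2 and 20.8 to 21.6 on the treated arrays, against 37.1 to 38.6, 25.8 to 26.1 and 20.6 to 20.96 on the untreated arrays.

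Transport genes outside the naming rule were looked at as a list. Of 27 listed, 22 were measured singly, with a median of -0.05. Of these 1 fell (4.55%, near the 4.47% of all genes called lower) and 0 rose. AHCTF1, named because it passed, which encodes ELYS, the protein that seeds pore assembly on chromatin, read 6.53, 6.32 and 6.59 with TGF-β1, against 6.96, 6.83 and 6.85 without it, and fell by 0.40 (SE 0.09, adjusted p = 0.0337). RANBP3, the SMAD exporter cofactor, read 6.05, 6.2 and 6.23 with TGF-β1, against 6.26, 6.37 and 6.33 without it, and did not pass (-0.16, adjusted p = 0.272). SEC13, a Y-complex subunit that also coats secretory vesicles, was at 0.22 (adjusted p = 0.114), GLE1 at -0.27 (adjusted p = 0.0754) and RAE1 at -0.09. MAD2L1, a spindle checkpoint protein, had the lowest estimate of the list, at -0.44, without passing (adjusted p = 0.0784). GLE1, RAE1, SEC13 and MAD2L1 were picked after their values were seen. Of 8 SMAD genes 1 rose and 1 fell (SMAD7 and SMAD3), and 9 of 9 measured TGF-β response genes rose. Over all genes 4.03% rose and 4.47% fell.

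**Figure D5:**
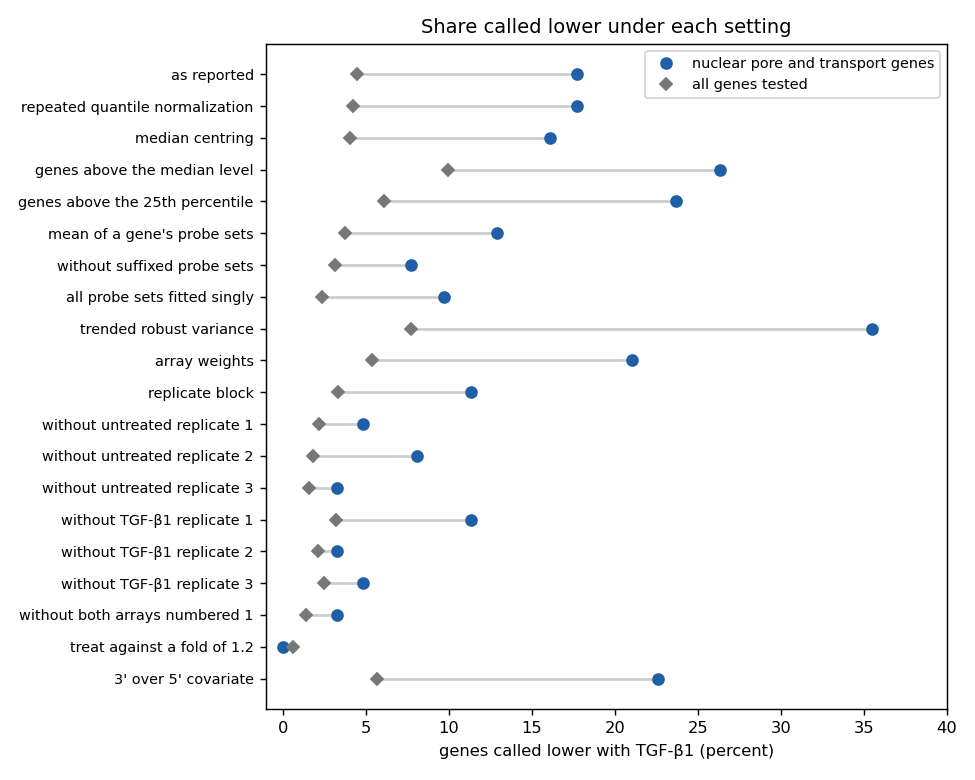
Percent of genes called lower with TGF-β1 (horizontal axis) among the nuclear pore and transport genes tested (blue circles) and among all genes tested (grey diamonds), for the fit as reported and each alternative setting. The share of members ranges from 0% with the fold test to 35.5% with a trended robust variance; it is 17.7% as reported.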

How the data were processed

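Per the submitters' processing notes, the deposited values are log2 estimates made by the authors with Affymetrix Expression Console and RMA, which corrects background, equalises arrays and summarises each probe set; no version is stated in the sources used here. That the scale is log2 was judged from the range of values, 1.57 to 14.5. Arrays have no read depth, and 3 per group limit the precision. RMA compresses differences of dim probe sets.

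Of 54675 probe sets 62 were controls, 41091 had 1 gene symbol in the platform annotation and 1801 several. Symbols were checked through RefSeq (GRCh38.p14), which changed 0. Each gene was read from its singly named probe set with the highest mean over 6 arrays. A limma fit (version 3.58.1, R 4.3.3, lmFit and eBayes with no covariate) compared the groups over 19775 genes, with Benjamini-Hochberg adjustment; a gene was called at an adjusted p below 0.05. The fit was tested on simulated data.

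The members, role groups, lists, motifs and alternatives were chosen with earlier results of these data known. Named were all called members, NUP35 and NUP88, the brightest and the most different member of each role group, and SMAD carriers with RANBP3; the other members are named to account for the set, and list genes outside it were named after their values were seen. The 5 members with the highest Pearson r to NUP35 were also named. The closing section gives the alternatives tried. Probe sets with several symbols or none were left out.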

Additional observations from a re-analysis of the deposited data

How the results depend on the processing

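As reported, 11 members fell and 1 rose, with a median of -0.15 on the log2 scale. Repeated quantile normalisation, median centring and array weights gave 10 to 13 falls, with 4.07% to 5.37% of all genes called lower. The count was 15 among genes above the median level and 14 above the 25th percentile, with medians of -0.167 and -0.166. Of all genes tested in these fits 9.93% and 6.11% were called lower. When probe sets of a gene were averaged, 8 fell and 0 rose (median -0.113), with 3.76% of all genes called lower. These included 6 of the 11 genes called lower as reported, without NUP88, XPOT, NUP58, RCC1 and RANBP1. Without suffixed probe sets 4 of 52 fell (median -0.0842), with 3.11% of all genes. In a fit of all probe sets singly 6 fell, with 2.37% of all genes. With a trended robust variance 22 fell (35.5%, against 7.72% of all genes). Against a fold of 1.2 (limma's treat) 0 fell and 0 rose, with 0.612% of all genes called lower. The 3′ over 5′ covariate gave 14 falls (22.6%, against 5.65% of all genes) and a median of -0.166. Without single arrays, 2 to 7 fell, 0 to 1 rose and the median was -0.164 to -0.132. Of all genes 1.6% to 3.19% were called lower, and such fits have fewer samples. Without both arrays numbered 1, 2 fell and 0 rose, with 1.37% of all genes called lower. Over all genes 121 to 1527 were called lower and 206 to 1102 higher in these settings. For NUP88, exclusion of suffixed probe sets leaves a dim one, at 0.231, which did not pass. The cause of the other shifts was not tested. With the replicate number as a block 7 fell and 1 rose, with 3.31% of all genes called lower. NUP58, NUP42, NUP160 and RANBP1 were no longer called in that fit. Deviations of same-numbered arrays correlated at 0.2, 0.056 and 0.0907, set against a minimum of 0.1, and the reported fit is unpaired. Yet 5 of 6 arrays correlated best with their own number. Both arrays numbered 1 also had the highest 3′ over 5′ ratios of their groups, 1.15 with TGF-β1 and 1.19 untreated. Whether same-numbered arrays were handled together is not known, so the unpaired choice is not settled. Single-array fits with the probe set kept were added after seeing the data. Of the 50 members not called, 13 changed sign under some alternative, and of the 12 called only NUP88 did.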

Other observations

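Genes of mRNA export and of the nuclear envelope, which work beside the pore, were looked at as further lists. Of 30 mRNA export genes 25 were measured singly, with a median of -0.13. Of these 3 fell (12%, against 4.47% of all genes) and 0 rose. The list genes named here were chosen after their values were seen. LRPPRC, an RNA-binding protein of mitochondria and nucleus, read 9.49, 9.57 and 9.55 with TGF-β1, against 10.00, 9.98 and 10.07 without it (-0.48 ± 0.07, SE, limma adjusted p = 0.0049). NCBP1, the large cap-binding subunit, fell by 0.35 and the export adaptor ALYREF by 0.31 (adjusted p = 0.0213 and 0.0448).

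Of 23 nuclear envelope and lamina genes 2 fell (8.7%) and 2 rose, with a median of -0.07. Over all genes 4.47% fell and 4.03% rose. LMNB1, which encodes lamin B1, read 9.51, 9.59 and 9.41 in treated cells, against 10.03, 9.98 and 9.99 in untreated cells (-0.50 ± 0.07, SE, adjusted p = 0.00636), and SUN1, an inner-membrane protein that links lamina and cytoskeleton, fell by 0.32 (adjusted p = 0.0289). ANKLE2 and BANF1, both of which act in rebuilding the envelope after mitosis, rose by 0.48 and 0.40 (adjusted p = 0.00359 and 0.0208). LMNA, which encodes lamins A and C, was at 0.13 (adjusted p = 0.433).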
